A study of Mus musculus with 16 samples.

Results

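A set of 10 genes of the mouse striatum is described whose RNA was lower after clozapine N-oxide (CNO) in earlier results from the same libraries: Nim1k, Pik3ip1, Txnip, Shisa2, Scml4, Edar, Stab2, Fam181a, Lmcd1 and Insc. They are 10 of the 17097 genes in the deposited tables, and each was found by its symbol in all 16 libraries. They were chosen by measured values, the differences between CNO and vehicle libraries, so those differences are given below as a description, without a test. The mice were C57BL/6J males at 63 days of age, injected with 1 mg/kg CNO or with vehicle, and whole striata were collected 2 h later. From each mouse a library was made of the RNA bound to ribosomes captured through a hemagglutinin tag, called IP here, and another of the cleared lysate, called input. This gave 4 groups of 4 libraries numbered 2 to 5, namely CNO IP and vehicle IP, and CNO input and vehicle input.

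All groups share strain, sex, age and a genotype labelled wild-type, and the injection is the only labelled difference between mice. CNO is a ligand of engineered receptors, and the series title names Gi signaling in astrocytes as the subject. The labels name neither the receptor nor what carried it or the tag into astrocytes. No library of CNO-injected mice without a receptor was analysed here, so an effect of CNO itself and one of the receptor cannot be told apart. The titles give 8 mouse codes, 4 for each injection, whereas the series text counts 4 mice. The code was taken as the animal, and should libraries of a group share an animal, p-values reflect a spread that may be technical.

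As background, Gi-coupled receptors lower cyclic AMP and release G protein subunits that can act on ion channels, phosphoinositide 3-kinase and MAP kinases. Astrocytes are the glia that clear glutamate and potassium and supply neurons with metabolites. The 10 genes belong to several pathways. Pik3ip1 and Txnip encode brakes, on phosphoinositide 3-kinase and on thioredoxin and glucose uptake, and Nim1k encodes a protein kinase related to the AMP-activated kinase. Edar and Stab2 encode receptors at the cell surface, and Shisa2 a protein that holds receptors back in the cell. Scml4, Lmcd1 and Fam181a encode proteins that act on transcription, and Insc an adaptor that orients the mitotic spindle.

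Whole reads recovered from the tables came to 52.1 to 61.5 M per library in CNO IP, 58.3 to 59.0 M in vehicle IP, 32.8 to 40.1 M in CNO input and 37.4 to 40.3 M in vehicle input (M, mega). Against input, over all 8 mice, IP was higher in all 15 astrocyte markers, with a median log2 ratio of 2.89, so the label of astrocyte RNA held for these markers. Aldh1l1 averaged 634 CPM in CNO IP, 640.4 CPM in vehicle IP, 77.8 CPM in CNO input and 85.3 CPM in vehicle input. Of all genes tested, 42% were higher and 40.4% lower in IP (limma, adjusted p under 0.05). IP was also higher than input in 7 of 8 interneuron, 9 of 10 oligodendrocyte, 5 of 7 oligodendrocyte precursor and 8 of 8 ependymal markers. IP was lower than input in all 12 markers of medium spiny neurons, all 10 of microglia and all 10 of endothelium. The 8 mural cell markers went both ways, with Pdgfrb and Notch3 higher and 5 lower in IP, and no listed marker was at 0 reads in any library.

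For 9 of the 10 genes the RefSeq promoter table (build GRCm38.p6) gives a start, and the 250 bases before it were searched on both strands for sequence motifs. This start lies inside the GENCODE gene given below by 3984 bases for Fam181a, 2072 for Insc, 330 for Pik3ip1 and 83 for Stab2, so these windows lie wholly or partly within that gene and may not be its main promoter. The windows that held the motifs are printed 5′ to 3′ with the motifs in capitals. Txnip lies at chr3:96557707-96557956 (+), Lmcd1 at chr6:112273508-112273757 (+), Fam181a at chr12:103314709-103314958 (+) and Nim1k at chr13:119755883-119756132 (-).
Txnip: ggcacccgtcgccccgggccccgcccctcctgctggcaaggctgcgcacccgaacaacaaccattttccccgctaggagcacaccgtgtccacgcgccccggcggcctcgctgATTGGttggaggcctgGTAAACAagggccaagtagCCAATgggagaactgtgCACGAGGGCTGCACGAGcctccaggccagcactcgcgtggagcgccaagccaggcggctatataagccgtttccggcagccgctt
Lmcd1: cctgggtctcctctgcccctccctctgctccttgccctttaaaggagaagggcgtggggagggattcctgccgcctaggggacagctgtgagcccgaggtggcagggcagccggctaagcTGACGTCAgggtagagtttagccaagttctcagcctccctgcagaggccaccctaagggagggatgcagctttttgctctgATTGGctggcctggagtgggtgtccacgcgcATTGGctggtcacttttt
Fam181a: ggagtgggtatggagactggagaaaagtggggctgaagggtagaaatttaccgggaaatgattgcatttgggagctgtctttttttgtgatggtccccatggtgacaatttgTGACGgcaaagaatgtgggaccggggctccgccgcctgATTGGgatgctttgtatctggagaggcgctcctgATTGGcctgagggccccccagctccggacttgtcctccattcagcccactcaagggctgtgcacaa
Nim1k: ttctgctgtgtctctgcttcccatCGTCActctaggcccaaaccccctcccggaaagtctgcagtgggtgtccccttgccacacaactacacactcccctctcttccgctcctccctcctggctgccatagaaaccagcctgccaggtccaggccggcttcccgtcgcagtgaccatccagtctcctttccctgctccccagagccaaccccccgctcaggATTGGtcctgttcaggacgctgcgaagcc

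The forkhead element GTAAACA, read by FoxO factors, was in the Txnip window, 121 bases before the start, and in 3.09% of all 27025 windows, counting the first listed window of each gene. The full cyclic AMP response element TGACGTCA was in the Lmcd1 window, 130 bases before the start, and in 1.62% of all windows. Its first letters, TGACG, overlap it there and were also in the windows of Fam181a and Nim1k, against 17.9% of all windows. The CCAAT box was in these 4 windows, in Txnip, Lmcd1 and Fam181a at 2 places each, and in 34.5% of all windows. A repeat of CACGAG with 5 bases between its copies, the form of the carbohydrate response element known in the Txnip promoter, was in 1 of the 27025 windows, that of Txnip. That repeat was added to the search after the sequence was seen. The E-box CACGTG (6.05% of all windows) and the TATA box TATAAA (13%) were in 0 of the 9 windows, and Insc, Edar, Stab2, Pik3ip1 and Shisa2 held none of the motifs. The GC content of the 9 windows had a median of 58.8% (53.2 to 66.8%), against 52% for all windows. A match is a description of letters and not of a bound factor.

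Levels are CPM, reads scaled to the size of the library, in the order of replicates 2 to 5, and differences as log2 CPM of CNO minus vehicle with the standard error (SE) of limma. A percentage of vehicle is the ratio of the geometric means. Coordinates are those of GENCODE vM21 on GRCm38, the build that the submitters' notes call mm10, and all 10 genes are annotated as protein coding. Nim1k, Shisa2 and Edar overlap no other gene there. Each of the other 7 overlaps 1 to 5 gene models with provisional names, most of them antisense genes or pseudogenes, for Txnip the antisense gene Gm15441. The sources used here do not say whether the counting used the strand, and reads of these models could be among theirs.

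Nim1k, the kinase gene (chromosome 13, 119710094 to 119755882, minus strand), had 26.8, 22.9, 28.6 and 25.3 CPM in CNO IP, against 61.0, 58.8, 69.8 and 68.8 CPM in vehicle IP. Every CNO IP library lay below every vehicle IP library, at 40.0% of vehicle, a log2 difference of -1.32 (SE 0.08). In input it had 16.9, 17.0, 15.8 and 17.9 CPM in CNO input, against 22.6, 22.9, 23.9 and 22.3 CPM in vehicle input, again without overlap, at 73.6% of vehicle (log2 -0.44, SE 0.06). The order of the groups was vehicle IP, CNO IP, vehicle input and CNO input, and only CNO IP and vehicle input overlapped. The levels rested on 558 to 3737 reads, and the replicates of each group stood close together, with an SD of 0.14 log2 units or less.

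Pik3ip1 encodes a membrane protein that binds the catalytic subunit of phosphoinositide 3-kinase and lowers its activity. The gene (chromosome 11, 3330401 to 3342971, plus strand) had 46.4, 48.4, 44.3 and 38.8 CPM in CNO IP, against 110.4, 96.8, 103 and 98.5 CPM in vehicle IP. The IP groups were far apart, with CNO at 43.5% of vehicle (log2 -1.20, SE 0.07). In input the values were 29.3, 30.0, 29.3 and 24.9 CPM in CNO input, against 37.1, 33.9, 34.7 and 35.4 CPM in vehicle input. These groups did not overlap either, and CNO stood at 80.2% of vehicle (log2 -0.32, SE 0.07), the smallest of the input differences among the 5 genes without overlap there. The 4 groups ran from vehicle IP through CNO IP and vehicle input to CNO input with no overlap between neighbours.

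Txnip encodes an alpha-arrestin that binds thioredoxin and promotes the removal of glucose transporters from the cell surface. The gene (chromosome 3, 96557957 to 96561883, plus strand) had 27.7, 32.8, 26.0 and 17.7 CPM in CNO IP, against 83.9, 55.0, 74.8 and 42.9 CPM in vehicle IP. The groups did not overlap, and the CNO level was 40.9% of vehicle (log2 -1.29, SE 0.25). Both groups were spread widely, and replicate 5 was the lowest of each. In input the values were 22.0, 36.2, 31.2 and 26.1 CPM in CNO input, against 41.7, 29.1, 40.8 and 45.7 CPM in vehicle input, groups that overlapped (log2 -0.45, SE 0.18). The order was vehicle IP, vehicle input, CNO input and CNO IP, and each neighbour overlapped the next.

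**Figure D1:**
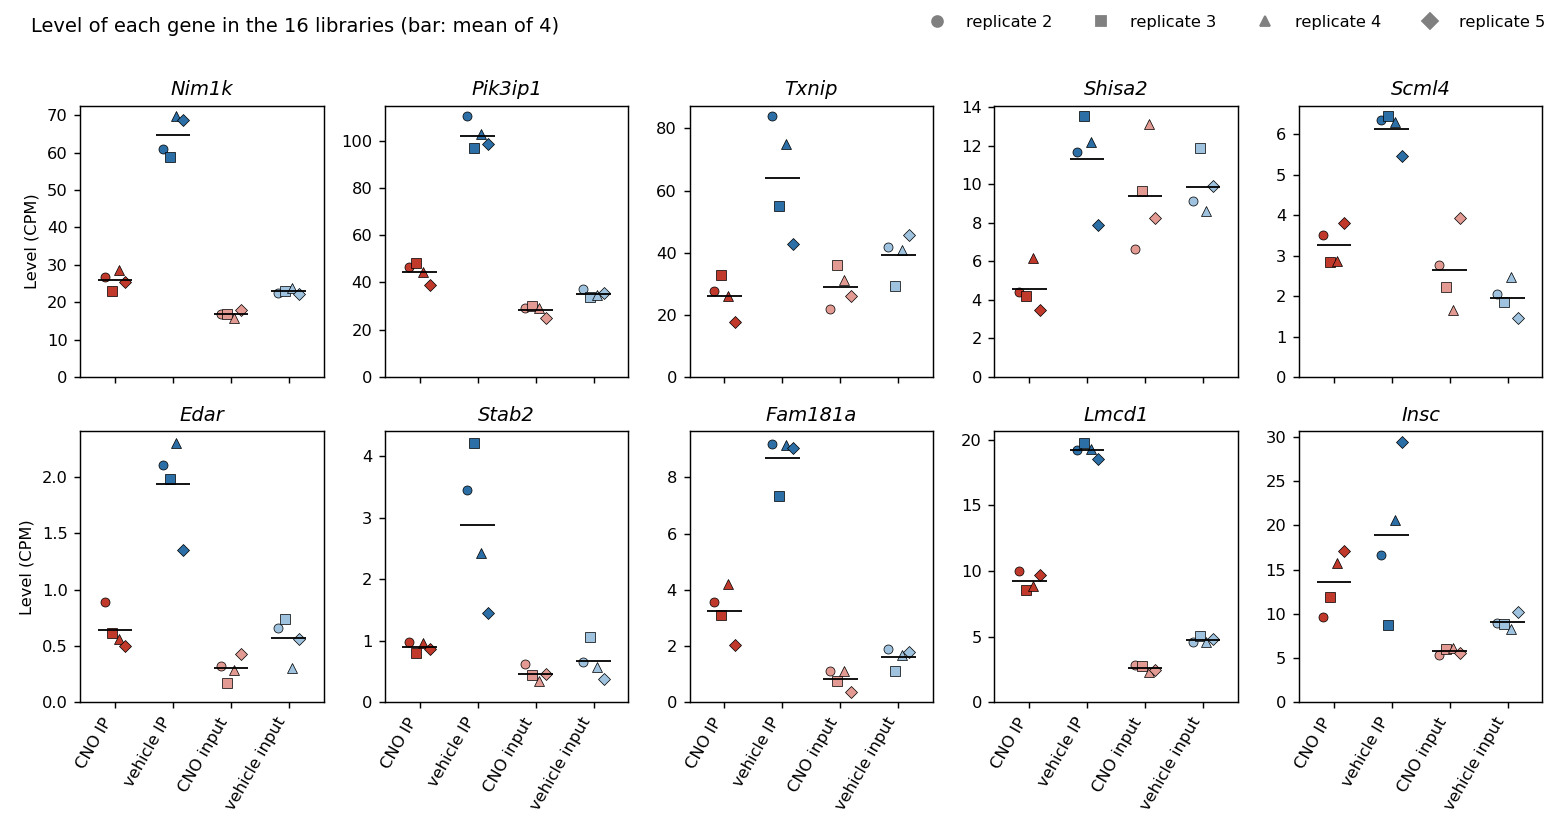
Level of each of the 10 genes in CPM (linear axis from 0) in the 16 libraries, with CNO left of vehicle, IP first and input after it. Points are libraries, shapes are replicate numbers and bars are means of 4 libraries. CNO IP lies below vehicle IP without overlap in all panels but that of Insc.

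Edar encodes a receptor of the tumour necrosis factor receptor family for ectodysplasin, known for the development of hair, teeth and glands, which signals to NF-kappa B. The gene (chromosome 10, 58600789 to 58675654, minus strand) had 0.887, 0.613, 0.563 and 0.498 CPM in CNO IP, against 2.11, 1.99, 2.30 and 1.35 CPM in vehicle IP. CNO IP was wholly below vehicle IP, at 32.9% of vehicle (log2 -1.60, SE 0.24), the largest difference of the 10 genes in IP. In input it had 0.326, 0.171, 0.288 and 0.432 CPM in CNO input, against 0.662, 0.739, 0.310 and 0.564 CPM in vehicle input, and the groups overlapped (log2 -0.91, SE 0.40). The input values rested on 6 to 32 reads, so a difference there was poorly resolved at this depth. CNO IP overlapped vehicle input but lay above CNO input.

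Stab2 encodes a scavenger receptor that takes up hyaluronan, best known from sinusoidal endothelium of the liver. The gene (chromosome 10, 86841198 to 87008025, minus strand) had 0.977, 0.810, 0.970 and 0.873 CPM in CNO IP, against 3.44, 4.21, 2.43 and 1.46 CPM in vehicle IP. CNO IP was lower in every library, at 33.8% of vehicle (log2 -1.56, SE 0.30), and the vehicle libraries were far more spread (SD 0.67 log2 units) than those of CNO (SD 0.13). In input the values were 0.620, 0.447, 0.345 and 0.455 CPM in CNO input, against 0.662, 1.06, 0.568 and 0.378 CPM in vehicle input, with overlap (log2 -0.45, SE 0.36) and 12 to 46 reads per library. CNO IP overlapped vehicle input but not CNO input.

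Shisa2 belongs to a family whose founding member, in Xenopus, holds Frizzled and fibroblast growth factor receptors in the endoplasmic reticulum. The gene (chromosome 14, 59625308 to 59631660, plus strand) had 4.40, 4.22, 6.18 and 3.48 CPM in CNO IP, against 11.7, 13.6, 12.2 and 7.86 CPM in vehicle IP. The CNO level was 40.3% of vehicle (log2 -1.31, SE 0.21), without overlap. In input the values were 6.63, 9.65, 13.1 and 8.23 CPM in CNO input, against 9.11, 11.9, 8.58 and 9.92 CPM in vehicle input, and here the groups overlapped at nearly the same level (log2 -0.10, SE 0.20). The 4 CNO IP libraries were below all 12 others, whereas vehicle IP, CNO input and vehicle input overlapped one another.

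Scml4 encodes a protein of the polycomb group, which keeps genes silent. The gene (chromosome 10, 42860370 to 42960780, plus strand) had 3.50, 2.85, 2.86 and 3.81 CPM in CNO IP, against 6.33, 6.44, 6.30 and 5.45 CPM in vehicle IP. The groups did not overlap, and the CNO level was 52.7% of vehicle (log2 -0.92, SE 0.12). In input the values were 2.76, 2.22, 1.65 and 3.92 CPM in CNO input, against 2.04, 1.86, 2.47 and 1.45 CPM in vehicle input. These overlapped, and their mean difference pointed up (log2 0.38, SE 0.27), which made Scml4 the only gene of the 10 with a higher mean in CNO input than in vehicle input. Input levels rested on 58 to 174 reads.

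Lmcd1 encodes a LIM domain protein that represses the transcription factor Gata6 and, in the mouse heart, promotes calcineurin signalling. The gene (chromosome 6, 112273758 to 112330425, plus strand) had 10.01, 8.54, 8.86 and 9.67 CPM in CNO IP, against 19.2, 19.8, 19.3 and 18.6 CPM in vehicle IP. CNO IP was at 48.2% of vehicle IP (log2 -1.05, SE 0.07), with narrow and separate groups. Input gave a similar picture at a lower level, 2.86, 2.74, 2.33 and 2.50 CPM in CNO input, against 4.60, 5.03, 4.60 and 4.82 CPM in vehicle input. The input groups did not overlap and CNO stood at 54.6% of vehicle (log2 -0.87, SE 0.12). All 4 groups were separate, in the order vehicle IP, CNO IP, vehicle input and CNO input.

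Fam181a encodes a small protein that binds TEAD transcription factors. The gene (chromosome 12, 103310975 to 103317065, plus strand) had 3.57, 3.12, 4.21 and 2.04 CPM in CNO IP, against 9.19, 7.35, 9.14 and 9.04 CPM in vehicle IP. CNO IP was at 36.2% of vehicle IP (log2 -1.47, SE 0.21), without overlap. In input it had 1.10, 0.751, 1.11 and 0.365 CPM in CNO input, against 1.89, 1.13, 1.69 and 1.80 CPM in vehicle input. The lowest vehicle library (49 reads) stood just above the highest CNO libraries (39 and 41 reads), and CNO was at 47.7% of vehicle (log2 -1.07, SE 0.36). The order of groups was that of Lmcd1, again with no overlap between neighbours.

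Insc encodes the mammalian inscuteable, which links the Par polarity proteins to the spindle orientation protein Gpsm2. The gene (chromosome 7, 114743694 to 114850383, plus strand) had 9.61, 11.9, 15.7 and 17.1 CPM in CNO IP, against 16.7, 8.79, 20.6 and 29.4 CPM in vehicle IP. These groups overlapped widely, and vehicle replicate 3 was the lowest of all 8. The IP difference was small beside its error (log2 -0.38, SE 0.35) and ran between -0.71 and -0.13 with a single library left out, -0.71 being the value without vehicle IP replicate 3. In input the values were 5.40, 6.00, 6.15 and 5.60 CPM in CNO input, against 8.95, 8.83, 8.30 and 10.2 CPM in vehicle input, separate and tight, with CNO at 63.8% of vehicle (log2 -0.65, SE 0.10). With all libraries, Insc was thus the gene of the 10 whose CNO difference was the larger in input. This order reversed without vehicle IP replicate 3.

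Per kilobase of exon, the vehicle IP levels were 23.9 ± 1.4 CPM for Pik3ip1, 20.5 ± 6.0 for Txnip, 11.1 ± 0.3 for Lmcd1 and 7.63 ± 0.65 for Nim1k (SD, n = 4 libraries). Fam181a had 5.65 ± 0.58, Insc 5.07 ± 2.30 and Shisa2 3.08 ± 0.66 CPM per kilobase. Scml4 (0.794 ± 0.059), Edar (0.532 ± 0.113) and Stab2 (0.329 ± 0.137) were the scarcest. Neighbours whose means were closer than their spread were Pik3ip1 and Txnip, Fam181a and Insc, and Insc and Shisa2.

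Over the 10 genes, the CNO minus vehicle difference in IP ran from -1.60 to -0.38 log2 CPM with a median of -1.30, beside a median of -0.01 for all 15598 genes tested. In 9 of 10 genes, all but Insc, every CNO IP library was below every vehicle IP library, which was so in 10.1% of all genes. Counted from the most negative difference, Edar was at position 6 of the 15598, Stab2 at 8, Fam181a at 12, Nim1k at 19, Shisa2 at 21 and Txnip at 25. Pik3ip1 was at 39, Lmcd1 at 60, Scml4 at 105 and Insc at 1048. Nothing is read from these counts, because the genes were chosen as lower after CNO.

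In input the 10 differences ran from -1.07 to 0.38 log2 CPM with a median of -0.45, beside -0.02 for all 15825 genes tested. The groups did not overlap, with CNO lower, in 5 of 10 genes (Nim1k, Pik3ip1, Fam181a, Lmcd1 and Insc), and in 4.03% of all genes. The difference was smaller in size in input than in IP for all genes but Insc, whose order reversed without vehicle IP replicate 3. It was smaller by the least for Lmcd1 (-0.87 in input beside -1.05 in IP), and the input difference was within 1 SE of 0 for Shisa2. Whether the CNO differences in IP and in input differ was not tested, since both may have entered the choice of the genes. In such bulk RNA, fewer cells of a type and less RNA per cell cannot be told apart.

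**Figure D2:**
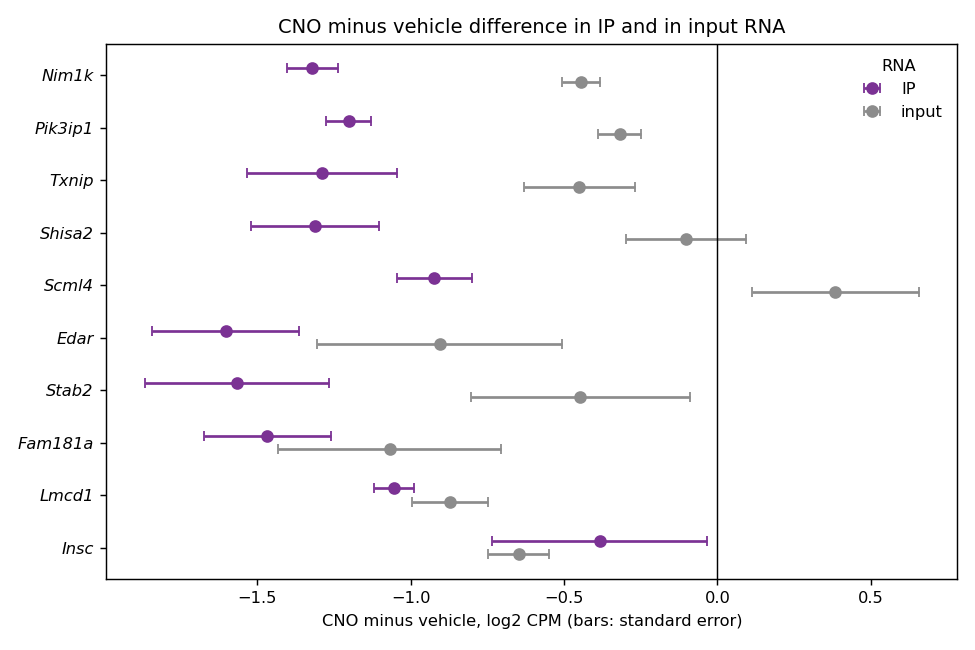
CNO minus vehicle difference of the 10 genes in log2 CPM, in IP (purple) and in input (grey). Points are differences of group means of 4 libraries and bars are standard errors of limma. The IP points lie left of the input points for all genes but Insc.

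**Figure D3:**
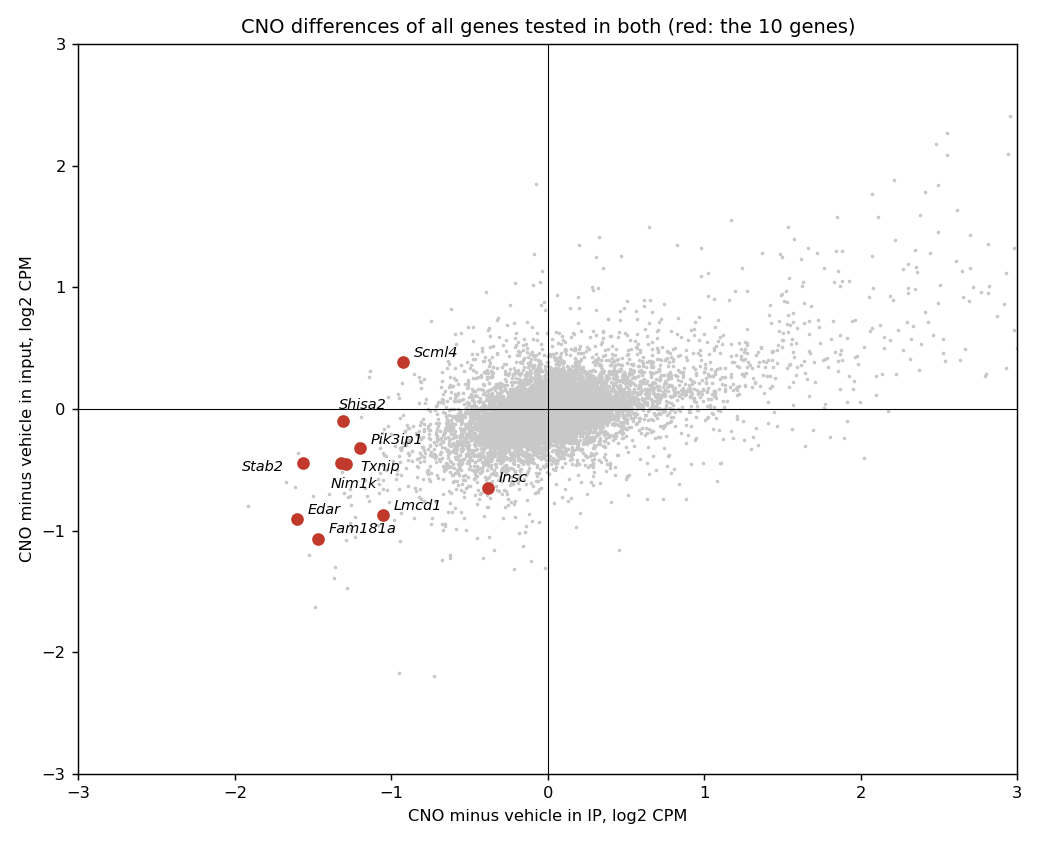
CNO minus vehicle difference in IP (horizontal) and in input (vertical), both in log2 CPM, for the 15267 genes tested in both, with the 10 genes in red. The axes end at 3 either way, and 45 genes lie beyond them. The 10 genes lie left of 0, with Scml4 above and the other genes below 0 on the vertical axis.

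The ratio of IP to input averaged over all 8 mice gives each injection the same weight, and it was tested. A fall with CNO that is larger in IP than in input lowers this average. A choice by falls in IP may also favour genes well detected in IP, which would raise the average. The CNO differences by which the genes were chosen thus enter the average, and its calls are not independent of the choice. The size of either effect was not tested. Of the 10 genes, 8 were higher in IP than in input and 1, Shisa2, was lower (limma, adjusted p under 0.05), whereas of all 16287 genes tested 42% were higher and 40.4% lower. The median log2 ratio of the 10 genes was 1.08, beside 0.01 for all genes. On the deposited scale Fam181a had the highest ratio (log2 2.24, SE 0.22, limma adjusted p = 7.94e-08), followed by Lmcd1 (log2 1.92, SE 0.06, limma adjusted p = 2.83e-14). Stab2 followed at 1.54 (SE 0.24, limma adjusted p = 1.40e-05) and Edar at 1.46 (SE 0.23, limma adjusted p = 2.15e-05). Pik3ip1 (1.09), Insc (1.06), Nim1k (1.05) and Scml4 (1.02) were close to one another, with limma adjusted p = 1.02e-04 or less. The order depended on the pseudocount: with log2(CPM + 1) the ratio was 1.66 for Lmcd1 and 1.55 for Fam181a, and those of Stab2 (0.78) and Edar (0.61) were below those of Pik3ip1 (1.07) and Nim1k (1.02).

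Shisa2 was lower in IP (log2 ratio -0.42, SE 0.15, limma adjusted p = 0.0180), with ratios of -1.03 in CNO mice and 0.18 in vehicle mice. This call thus rested on the CNO mice, whose IP levels entered the choice of the genes. Txnip showed no call (log2 ratio 0.26, SE 0.16, limma adjusted p = 0.157), with ratios of -0.16 in CNO mice and 0.68 in vehicle mice. The ratios of all 10 genes were below those of the astrocyte markers Slc1a2, a glutamate transporter (3.72), Aldh1l1, a folate enzyme (2.97), and Aqp4, a water channel (2.89). Aqp4 stood at the median of the 15 astrocyte markers (2.89), and the 10 genes were not compared with the markers below it. Each of the 8 higher calls and the lower call of Shisa2 kept its direction and its side of the threshold under all 21 alternatives run. With upper quartile scaling the median ratio over all genes moved by -0.19 log2 units, and 40.1% of the calls were then higher, against 51.0% as deposited.

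Within each injection the ratio likewise holds part of the CNO difference by which the genes were chosen, and it is given as a description without a test. In CNO mice the log2 ratios ran from -1.03 for Shisa2 (SE 0.23) to 2.04 for Fam181a (SE 0.37). Nearest to 0 there were Txnip at -0.16 (SE 0.21) and Scml4 at 0.37 (SE 0.24), the value of Scml4 being 0.58 without CNO input replicate 5. In vehicle mice the ratios ran from 0.18 for Shisa2 (SE 0.17) to 2.44 for Fam181a (SE 0.18), with Txnip at 0.68 (SE 0.23) and Insc at 0.93 (SE 0.32) next above Shisa2. Without vehicle IP replicate 5 the ratio of Shisa2 in vehicle mice was 0.35.

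Mouse by mouse, the log2 ratio of IP to input showed how far the 2 kinds of RNA parted. Pik3ip1 had ratios of 0.60 to 0.69 in CNO mice, against 1.48 to 1.57 in vehicle mice. Nim1k had 0.43 to 0.86 in CNO mice, against 1.36 to 1.62 in vehicle mice. Stab2 had 0.66 to 1.49 in CNO mice, against 1.95 to 2.38 in vehicle mice. Scml4 had -0.04 to 0.79 in CNO mice, against 1.35 to 1.91 in vehicle mice. Shisa2 had -1.24 to -0.59 in CNO mice, against -0.33 to 0.50 in vehicle mice. In these 5 genes every CNO mouse was below every vehicle mouse, which was so in 4.3% of all genes. Nothing is read from this count, because the ratio holds the CNO differences by which the genes were chosen.

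The other 5 genes overlapped between injections. Lmcd1 had 1.64 to 1.95 in CNO mice, against 1.94 to 2.07 in vehicle mice. Fam181a had 1.70 to 2.48 in CNO mice, against 2.29 to 2.70 in vehicle mice. Edar, Txnip and Insc varied most between mice, Edar with 0.21 to 1.84 in CNO mice, against 1.26 to 2.89 in vehicle mice. The ratio of Txnip was -0.56 to 0.33 in CNO mice, against -0.09 to 1.01 in vehicle mice, and that of Insc 0.83 to 1.61 in CNO mice, against -0.01 to 1.52 in vehicle mice.

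**Figure D4:**
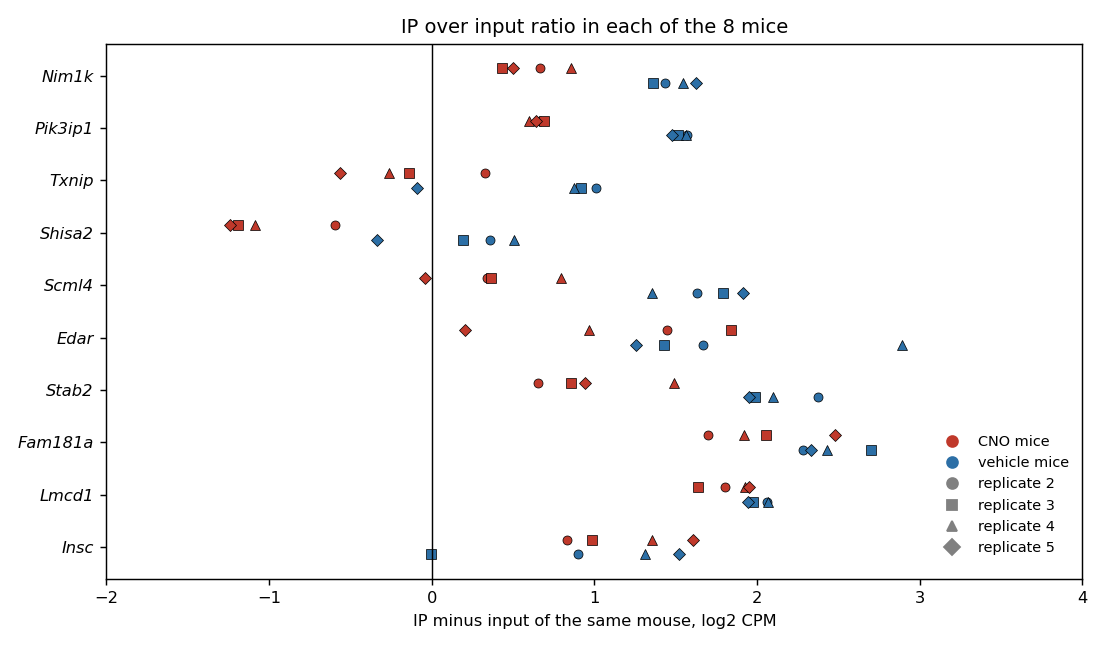
Log2 ratio of IP to input in each of the 8 mice for the 10 genes, with CNO mice in red above vehicle mice in blue and shapes for replicate numbers. Nim1k, Pik3ip1, Shisa2, Scml4 and Stab2 show CNO mice wholly to the left of vehicle mice, and Shisa2 lies left of 0 in all CNO mice.

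The genes followed one another over the 16 libraries to different degrees, which is a description, since the libraries share the 4 groups. The correlation of a gene with the mean of the other 9 genes was 0.985 for Pik3ip1, 0.984 for Nim1k, 0.915 for Edar, 0.912 for Lmcd1, 0.899 for Stab2 and 0.895 for Fam181a. It was lower for Scml4 (0.749), Txnip (0.694) and Insc (0.679), and 0.174 for Shisa2. After the group means were taken out, the 45 pairs of genes had correlations with a median of 0.07 over the 8 IP libraries, from -0.82 to 0.88, with 24 above 0. Over the 8 input libraries the median was -0.02, from -0.80 to 0.93, with 21 above 0.

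The 5 other genes whose levels over the 16 libraries were most like the mean of the 10 genes were Lpcat1, Pdgfrb, Dok7, Gramd4 and Hey1, with Pearson correlations of 0.987, 0.985, 0.979, 0.975 and 0.973. Pdgfrb, the receptor for platelet-derived growth factor B and a marker of pericytes, averaged 25.4 CPM in CNO IP, 63.3 CPM in vehicle IP, 15.5 CPM in CNO input and 22.2 CPM in vehicle input. Hey1, a target of Notch, averaged 80.1 CPM in CNO IP, 138 CPM in vehicle IP, 57.9 CPM in CNO input and 74.3 CPM in vehicle input. Lpcat1, an enzyme of phosphatidylcholine synthesis, averaged 28.7 CPM in CNO IP, 42.1 CPM in vehicle IP, 24.3 CPM in CNO input and 26.2 CPM in vehicle input. The likeness was ranked over the groups that chose the 10 genes, so it carries no test.

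Around the brakes on growth factor signalling, genes of the phosphoinositide 3-kinase and Akt pathway and FoxO target genes were counted with limma against the share of all genes. These and the other related lists were chosen with earlier results of these data known, so their counts and p-values are not independent of those results. Of all genes 10.2% rose and 7.07% fell in CNO IP, and 59.2% of the calls were thus higher, against 38.6% with upper quartile scaling. Of 24 pathway genes 1 rose and 4 fell (median log2 -0.01). Irs2, an adaptor of the insulin receptor, rose to 210.4 ± 20.7 CPM in CNO IP, against 82.6 ± 1.8 CPM in vehicle IP (SD, n = 4; log2 1.34, SE 0.07, limma adjusted p = 1.67e-06). The kinase subunit Pik3r1 (log2 -0.39, limma adjusted p = 0.00253) and the adaptor Irs1 (log2 -0.35, limma adjusted p = 0.00444) fell. Of 23 FoxO targets 4 rose and 6 fell, with a median log2 difference of -0.08. Irs2 is on both lists and is counted again among these 4. Gadd45a, a DNA damage response gene, rose by 1.82 (SE 0.26), while Sesn1, a stress-induced inhibitor of mTORC1 (log2 -0.71, SE 0.09), and Fbxo32, a ubiquitin ligase of muscle wasting (log2 -0.50, SE 0.08), fell.

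Around Txnip, 3 of 14 thioredoxin and alpha-arrestin genes rose and 0 fell in CNO IP (median log2 0.12). Slc2a1, the glucose transporter GLUT1 that Txnip acts on, rose to 226 ± 11 CPM in CNO IP, against 94.0 ± 9.1 CPM in vehicle IP (SD, n = 4; log2 1.27, SE 0.07, limma adjusted p = 3.17e-06). Thioredoxin reductase Txnrd1 rose by 0.49 (SE 0.09) and overlaps Eid3 in the annotation. Among the kinases related to Nim1k, 7 of 21 rose and 1 fell (median log2 0.10). Sik1 rose by 1.53 (SE 0.09) and Sik2, which overlaps Ppp2r1b, by 1.13 (SE 0.05), both salt-inducible kinases whose activity cyclic AMP signalling restrains. Stradb, a partner of the upstream kinase, had a log2 difference of -0.23 (limma adjusted p = 0.0357), lost without any single library other than CNO IP replicate 3 (up to 0.101).

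Around the receptors, 3 of 14 genes of the ectodysplasin pathway rose and 2 fell in CNO IP (median log2 0.03). Eda (log2 -0.28, limma adjusted p = 0.253) and Eda2r (log2 0.00, limma adjusted p = 0.996) did not pass, and Edaradd was below the filter in IP. The NF-kappa B subunit Rela rose by 0.95 (SE 0.09) and the receptor Relt by 0.85 (SE 0.07). The adaptor Tab1 fell by 0.29 (SE 0.04), and Ikbkg, which overlaps G6pdx, had a difference of -0.12 whose call (limma adjusted p = 0.0360) was lost without any single library (up to 0.0907). Of 22 hyaluronan and scavenger receptor genes 4 rose and 1 fell (median log2 0.02). Has2, a hyaluronan synthase that overlaps its antisense gene Has2os, rose to 10.4 ± 1.9 CPM in CNO IP, against 1.31 ± 0.60 CPM in vehicle IP (SD, n = 4; log2 3.09, SE 0.32, limma adjusted p = 2.14e-04). The hyaluronan receptor Cd44 rose by 1.63 (SE 0.26), and the link protein Hapln1 fell by 0.52 (SE 0.04).

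Of 19 Shisa family and receptor genes 4 rose and 1 fell in CNO IP (median log2 0.09). Fgfr2, a fibroblast growth factor receptor, rose to 672 ± 24 CPM in CNO IP, against 240.1 ± 34.7 CPM in vehicle IP (SD, n = 4; log2 1.495, SE 0.10, limma adjusted p = 7.92e-06). Its gene model overlaps Ate1, Nsmce4a and many other named genes in the annotation. Of the Frizzled receptors of Wnt, Fzd1 rose by 0.79 (SE 0.13) and Fzd10 fell by 1.49 (SE 0.26).

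Around the nuclear proteins, 1 of 29 polycomb genes rose and 3 fell in CNO IP (median log2 -0.01). Pcgf5 rose by 0.70 (SE 0.06), and Ezh1 (log2 -0.25, SE 0.05) and Bmi1 (log2 -0.20, SE 0.04) fell. Of 15 LIM protein and calcineurin genes 2 rose and 1 fell (median log2 0.09). Gata6 and Gata4 were listed with them but had no values here. Rcan1, a calcineurin inhibitor, rose by 1.64 (SE 0.09) and the calcineurin subunit Ppp3cc by 0.26 (SE 0.05). The LIM protein gene Crip2 had a difference of -0.22 whose call (limma adjusted p = 0.0389) was lost without any single library other than vehicle IP replicates 3 and 5 (up to 0.103). Of 8 TEAD cofactors and relatives 3 rose and 2 fell (median log2 0.10). The YAP relative Wwtr1 rose by 0.97 (SE 0.06) and Tead1 by 0.45 (SE 0.05), and the TEAD inhibitor Vgll4 fell by 0.58 (SE 0.08). Fam181b, the paralog of Fam181a, fell to 65.7 ± 6.8 CPM in CNO IP, against 107.5 ± 5.3 CPM in vehicle IP (SD, n = 4; log2 -0.71, SE 0.07, limma adjusted p = 2.02e-04).

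Around Insc, 2 of 19 spindle orientation and polarity genes rose and 4 fell in CNO IP (median log2 0.00). Pard6a, a partner of Par3, rose to 53.9 ± 3.5 CPM in CNO IP, against 15.1 ± 0.6 CPM in vehicle IP (SD, n = 4; log2 1.83, SE 0.06, limma adjusted p = 1.29e-07), and Gpsm1, which overlaps Dnlz, rose by 0.46 (SE 0.07). Pard6g fell by 0.59 (SE 0.09). The polarity gene Llgl2 had a difference of -1.02 (limma adjusted p = 0.0249) at levels near 1 CPM, lost without vehicle IP replicate 3 or 4 (up to 0.0648).

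**Figure D5:**
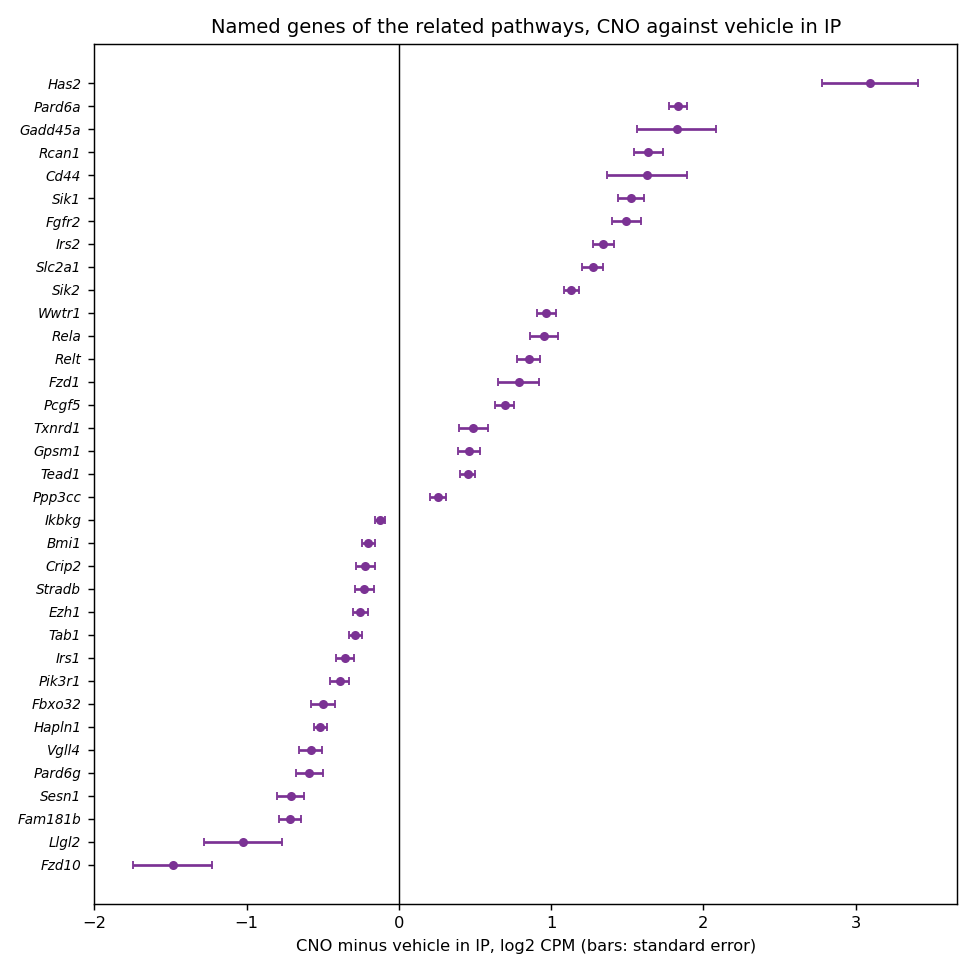
CNO minus vehicle difference in IP, in log2 CPM, of the 35 genes named from the related pathways. Points are differences of group means of 4 libraries and bars are standard errors of limma. Has2 has the highest value (3.09) and Fzd10 the lowest (-1.49).

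In CNO input far fewer of these genes passed, as of all genes, of which 0.815% rose and 0.183% fell. Irs2 (log2 0.46, SE 0.06), Slc2a1 (0.54, SE 0.06), Has2 (1.78, SE 0.27), Fgfr2 (0.51, SE 0.08), Pard6a (0.47, SE 0.07) and Wwtr1 (0.57, SE 0.07) rose, each as in IP. Fzd1 (0.43), Rcan1 (0.39) and Fam181b (-0.44) passed at limma adjusted p = 0.0404, 0.0475 and 0.0413. The call of Fam181b was lost without any single library (up to 0.132), that of Fzd1 without any but CNO input replicate 4 (up to 0.172) and that of Rcan1 without any but CNO input replicate 2 (up to 0.161). The call of Has2 was lost without CNO input replicate 5 (0.0546). None of the AMPK-related, ectodysplasin or polycomb lists had a gene past the threshold in input.

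Markers of other cells moved with CNO in places. The 8 mural cell markers summed to 134.7 to 155.4 CPM in CNO IP, against 197 to 202.2 CPM in vehicle IP, and to 113.3 to 130.5 CPM in CNO input, against 132.4 to 154.9 CPM in vehicle input. Of these 8, Pdgfrb, which unlike 5 of its list was higher in IP than in input, fell in IP (log2 -1.31, SE 0.16, limma adjusted p = 7.13e-04) and in input (log2 -0.52, SE 0.08, limma adjusted p = 0.0164). The input call was lost without CNO input replicates 3 or 5 or vehicle input replicates 2, 3 or 4 (up to 0.0842). The other 7, among them Rgs5 (log2 -0.07 in IP) and Vtn (log2 -0.06 in IP), did not pass. The 10 endothelial markers summed to 29.74 to 34.26 CPM in CNO IP, against 30.23 to 43.11 CPM in vehicle IP, and to 144.3 to 176.5 CPM in CNO input, against 196.6 to 207.8 CPM in vehicle input. Among them Cldn5 (log2 -0.63, SE 0.12, limma adjusted p = 0.0347) and Slco1a4 (log2 -0.53, SE 0.10, limma adjusted p = 0.0295) fell in input. Both calls were lost without CNO input replicates 2, 3 or 5 or vehicle input replicates 2 or 4, that of Cldn5 also without vehicle input replicate 5 (up to 0.131) and that of Slco1a4 without vehicle input replicate 3 (up to 0.117).

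The 8 ependymal markers summed to 170.8 to 224.6 CPM in CNO IP, against 215.9 to 304.4 CPM in vehicle IP, and 0 of 8 passed. Of 15 astrocyte markers 2 fell in IP and 0 passed in input. Gja1, a gap junction gene (log2 -0.30, SE 0.08, limma adjusted p = 0.0247), kept its call without CNO IP replicate 3 and without vehicle IP replicate 5 but lost it without any other library (up to 0.0776). S100b, a calcium-binding protein gene that overlaps Dip2a (log2 -0.22, SE 0.06, limma adjusted p = 0.0461), lost its call without any library but vehicle IP replicate 5 (up to 0.118). The astrocyte sum was 38500 to 42360 CPM in CNO IP, against 37380 to 45740 CPM in vehicle IP, and 4704 to 5605 CPM in CNO input, against 4528 to 5147 CPM in vehicle input. The part of these marker differences in the values of the 10 genes was not tested.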

How the data were processed

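Striatal RNA of 8 mouse codes was sequenced as 16 libraries, 1 IP and 1 input library per code. The submitters' processing notes list bcl2fastq 2.17, STAR, HTSeq, limma and build mm10. Neither the options of the counting nor its gene models are named in the sources used here. Each deposited table holds log2 CPM values that the authors made relative to a normalized library size, 17098 lines per library. An identical line was dropped, which left 17097 genes.

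Whole reads, within 0.01 read, were recovered from 100% of the values with a prior count at the floor of -7.54 log2 CPM, and the library sizes differed from the read totals by factors of 0.880 to 1.14. No gene had fewer than 29 reads over all libraries, so genes near 0 are not in the tables used here.

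The deposited log2 values were then fitted with limma 3.58.1 (R 4.3.3; lmFit, eBayes with trend and robust settings). The p-values were adjusted by Benjamini-Hochberg over the genes of the comparison, and calls had an adjusted p under 0.05. Genes entered with at least 15 reads in all and, in 4 libraries, a CPM equal to 10 reads in the median library, and all 10 genes passed in each comparison. The fold changes are on the scale of log2 CPM with a small prior count. Limma-voom on the recovered reads called 1588 genes higher and 1086 lower in CNO IP. Each script that fits all genes was checked on simulated data.

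The 10 genes, the related gene lists and the marker lists were chosen with earlier results of these data known. From each list, up to 2 genes that rose and 2 that fell in each RNA type are named, those past the threshold whose groups do not overlap, largest difference first, with the 5 genes most like the 10 in level and the markers Aldh1l1, Slc1a2 and Aqp4. The other markers and like genes with values were named after their values were seen. The ratio of IP to input over all mice was added after the data were seen. IP and input of a mouse are paired by its code, and their deviations from the group means correlated at 0.210 to 0.572, each best with its own. The main fits did not use this pairing, and the mouse entered as a block only in an alternative. Alternatives were no filter, upper quartile scaling, log2(CPM + 1), limma-voom, a block and each library left out.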

Additional observations from a re-analysis of the deposited data

Results flagged for a closer look

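In 3 of the 40 groups of 4 libraries, a level of 1 of the 10 genes stood apart from the others, with a gap to its nearest neighbour above Dixon's 95% critical value for the share of the group's range, on the log2 scale. Chance gives this in about 1 of 20 groups. Fam181a was low in vehicle IP replicate 3, at 7.35 CPM beside 9.04 to 9.19 CPM, a gap of 0.927 of the range. Pik3ip1 was low in CNO input replicate 5, at 24.9 CPM beside 29.3 to 30.0 CPM (0.873). Scml4 was low in vehicle IP replicate 5, at 5.45 CPM beside 6.30 to 6.44 CPM (0.869). None of these libraries was the same, and without any of them the IP differences of Fam181a and Scml4 and the input difference of Pik3ip1 kept their sign.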

How the results depend on the processing

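Against 1102 genes that fell in CNO IP, 1992 fell with upper quartile scaling, 717 with the replicate number as a block and 596 to 1213 with a library left out (596 and 716 when vehicle IP replicate 2 or 4 was left out, and 726 for CNO IP replicate 4). Against 29 genes that fell in CNO input, 7 fell with the block and 4 to 27 with a library left out (8 without CNO input replicate 3, 5 or vehicle input replicate 4, 4 without vehicle input replicate 2 and 11 without vehicle input replicate 3), and against 129 that rose, 85 to 155 with a library left out (85 without CNO input replicate 5). The replicate numbers did not pair CNO with vehicle mice: same-numbered libraries correlated at -0.188 to 0.222 in IP and -0.373 to 0.001 in input, and the block ended the calls of Stradb, Ikbkg, Llgl2, Crip2 and S100b in IP and of Fgfr2, Fzd1, Rcan1, Fam181b and Cldn5 in input (adjusted p = 0.0503 to 0.218). Rcan1 in input was also lost with limma-voom (0.0593). With the mouse as a block no call of the 10 genes in IP over input over all mice was lost.

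The ratio of IP to input of Txnip in CNO mice ran from -0.28 to 0.014 with a library left out and was reversed without CNO IP replicate 5 (0.014). In that ratio upper quartile scaling moved the median of all genes by -0.22 log2 units in CNO mice and by -0.16 in vehicle mice. The pseudocount of 1 gave smaller differences for scarce genes, in IP -0.75 for Scml4, -0.83 for Edar and -0.97 for Stab2, and in input -0.17 for Stab2, -0.26 for Edar, -0.53 for Fam181a and -0.68 for Lmcd1. With a library left out, the 10 differences in IP kept their sign, Insc running from -0.71 to -0.13, as did 9 of 10 in input, while Shisa2 in input ran from -0.28 to 0.050. The causes of these changes were not tested. Depth limits Edar, Stab2 and Fam181a in input, which rested on 6 to 83 reads per library.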
